A study of Homo sapiens with 7 samples.

Results

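The genes of the programmed death ligands PD-L1 (CD274) and PD-L2 (PDCD1LG2), of the tyrosine kinase JAK2 and of 7 neighbours (AK3, RCL1, PLGRKT, ERMP1, UHRF2, GLDC and KDM4C) lie in chromosomal band 9p24 and are examined here in Hodgkin lymphoma (HL). They were taken by name, and every probe set that the array annotation gives to a single one of these genes was read, which made 10 of 19775 measured genes and 21 of the 41097 probe sets with a single gene. Each probe set collects several short probes for one stretch of a transcript. The study characterised HL cell lines, and its series holds SUP-HD1, HDLM-2, L-540, U-HO1, L-428, L-1236 and KM-H2, all established cell lines, with 1 array of total RNA from a single culture sample each. The labels give no treatment, no normal B-cell and no replicate, so no test between lines was possible and the copy number of 9p24 was not analysed here. The deposited values are log2 levels, hence a step of 1 stands for a doubling. For genes with several probe sets the one with the highest mean was used, and levels are compared between lines within a gene, never between genes.

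PD-L1 and PD-L2 are surface proteins of the B7 family that bind the receptor PD-1 on T-cells and dampen their activity. Their genes lie side by side, and in classical HL the segment that holds them is often present in extra copies. JAK2, located nearby and often included in the same gain, transmits cytokine signals to STAT factors, and interferon signals through this kinase are known to raise PD-L1 transcription.

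Because each line has a single array, the technical spread was taken from genes with several probe sets, as the SD between their readings, 0.89 for the difference between 2 lines and 0.58 for a line relative to the mean of the lines. It leaves out variation between cultures and hybridisations, which the probe sets on an array share. A difference beyond it therefore exceeds the disagreement between probe sets and is not a tested difference between lines. Levels count as above background when they exceed those of 95% of 107 probe sets for olfactory receptors on the same array. This background was 4.49 to 4.86 in 6 lines and 5.59 in L-1236, where fewer low genes can be read. U-HO1 stood apart by a signal of 11.12 for 18S ribosomal RNA (5.23 to 7.06 in the others) and by an excess of 2.11 of the 3′ over the 5′ end of the actin transcript ACTB (0.06 to 0.54 in the others). Of 7 measured HL cell markers 4 were above background in all lines, CCL17 and FSCN1 among them. TNFRSF8 (CD30) was above it in 6 lines and at 4.36 against a background of 4.49 in SUP-HD1. In L-1236, MSC (5.03) and TRAF1 (4.97) were below background. Markers of B-cells, T-cells and macrophages were unevenly detected, and of 6, 6 and 7 measured none was above background in all lines.

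PD-L1 was above background in every line and varied strongly between them. CD274 had a level of 11.52 in SUP-HD1, 11.28 in HDLM-2, 8.49 in L-540, 8.36 in L-1236, 6.48 in L-428, 6.04 in KM-H2 and 5.79 in U-HO1. The lines thus formed 3 tiers, with SUP-HD1 and HDLM-2 on top, L-540 and L-1236 in the middle, and L-428, KM-H2 and U-HO1 at the bottom. The tiers were separated by gaps of 2.79 and 1.88, whereas lines within a tier differed by at most 0.69, less than the technical spread. From the top to the bottom line the range was 5.73 or 53.1-fold, larger than in 96.6% of all genes that exceeded background in any line. SUP-HD1 and HDLM-2 exceeded the median of the other 5 lines 32.9-fold and 27.9-fold. The second CD274 probe set gave 10.04 in SUP-HD1, 9.80 in HDLM-2, 6.94 in L-540, 7.02 in L-1236, 5.69 in L-428, 5.60 in KM-H2 and 4.26 in U-HO1, the last below background. Both probe sets put the same lines in the top and middle places, with r = 0.99 over the lines, but at the second U-HO1 lay 1.34 below KM-H2, so the bottom lines were not level there. In RNA of a whole culture, more cells with a transcript and more RNA per cell cannot be told apart.

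The upstream promoter of CD274 is shown because interferon signalling through JAK2 acts on this gene, and because it was the sole gene among those with a promoter window that held the letters of an interferon-stimulated element. The 250 bases before the RefSeq start (GRCh38.p14, chr9:5450292-5450541, plus strand) read 5′ to 3′ as follows, with this element in capitals.
CD274 promoter: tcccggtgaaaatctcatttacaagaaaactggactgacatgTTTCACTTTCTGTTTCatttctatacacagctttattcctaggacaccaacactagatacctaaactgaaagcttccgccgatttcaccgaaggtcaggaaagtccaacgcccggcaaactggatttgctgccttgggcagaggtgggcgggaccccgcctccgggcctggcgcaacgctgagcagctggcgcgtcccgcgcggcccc
The capitals cover 2 overlapping matches on the minus strand to the element, searched as 2 copies of GAAA with any 2 bases between them, which begin 208 and 202 bases before the start. It was searched on both strands and occurred in 3.57% of 35116 RefSeq promoter windows of 300 bases each. Windows were given for 9 of the 10 genes, 13 in all, and not for PDCD1LG2. The letters TTCNNNGAA of a GAS element, the site of STAT dimers, stood in the windows of CD274 and AK3, against 7.66% of all windows, and those of an AP-1 site, TGANTCA, in that of KDM4C, against 7.71%. The element of the first kind overlapped none of the others in the CD274 window, and a match of letters is a description and not evidence of a bound factor.

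PD-L2 was detected in fewer lines. PDCD1LG2 had a level of 9.33 in HDLM-2, 7.54 in SUP-HD1, 6.20 in L-1236, 5.34 in L-540, 5.06 in L-428, 4.46 in KM-H2 and 3.99 in U-HO1. KM-H2 and U-HO1 were below background, so the level of HDLM-2 was at least 26.7-fold above the lowest line, counted from the background levels. HDLM-2 exceeded SUP-HD1 by 1.79 and SUP-HD1 exceeded L-1236 by 1.34, both larger than the technical spread, while each of the following neighbours in the order differed by 0.28 to 0.86 and could not be told apart. The second PDCD1LG2 probe set ranked HDLM-2 (9.56) and SUP-HD1 (7.60) first as well, followed by L-1236 (6.15), L-540 (5.60), L-428 (4.97), KM-H2 (4.23) and U-HO1 (3.46). Both ligands were thus highest in the same pair of lines but in unequal balance. HDLM-2 minus SUP-HD1 was -0.24 for CD274, within the technical spread, and 1.79 for PDCD1LG2.

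JAK2 followed with a range of 4.53 or 23.1-fold. Its main probe set had a level of 9.44 in HDLM-2, 8.46 in L-1236, 8.37 in SUP-HD1, 6.89 in L-540, 6.85 in L-428, 6.13 in KM-H2 and 4.91 in U-HO1. HDLM-2, L-1236 and SUP-HD1 were at least 1.48 above the remaining lines, and U-HO1 was 1.22 below KM-H2. The place of L-1236 rests on this probe set. At the second it had 5.05, below its background, against 7.97 in HDLM-2, 7.23 in SUP-HD1, 5.78 in L-428, 5.09 in L-540, 5.09 in U-HO1 and 3.99 in KM-H2. At the third it had 5.17, again below background, against 6.71 in HDLM-2, 5.80 in SUP-HD1, 4.77 in L-428, 3.56 in U-HO1, 3.55 in KM-H2 and 2.72 in L-540. HDLM-2 was highest at all 3 probe sets, and SUP-HD1 was second at the 2 that put L-1236 below background. The SD between JAK2 probe sets was 0.94 for a difference between lines, larger than 0.44 for CD274 and 0.27 for PDCD1LG2. U-HO1 was the lowest line for all of CD274, PDCD1LG2 and JAK2 at the main probe sets, and the part of its RNA quality in this was not tested.

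**Figure D1:**
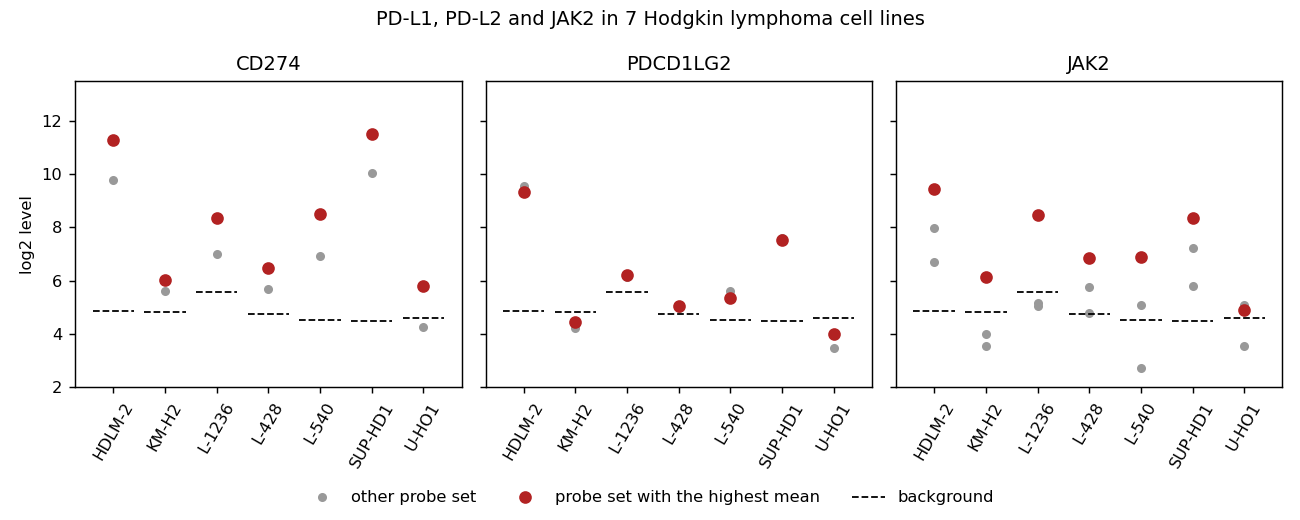
Log2 level (y axis) of CD274, PDCD1LG2 and JAK2 in the 7 HL cell lines (x axis). Large points show the probe set with the highest mean, small points the other probe sets and dashed lines the background of each array. HDLM-2 and SUP-HD1 hold the 2 highest CD274 and PDCD1LG2 levels, and the JAK2 level of L-1236 is high at 1 probe set.

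The 3 genes moved together over the lines. For PDCD1LG2 and CD274, Pearson's r was 0.93 and Spearman's rho 0.93, for JAK2 and CD274 they were 0.87 and 0.82, and for JAK2 and PDCD1LG2 0.93 and 0.96. These are descriptions over 7 points that share a normalization, and no p is given. Without HDLM-2 and SUP-HD1, the lines farthest from the median of the ligand on the x axis, r was 0.88, 0.79 and 0.98 in the same order. At the main probe sets it thus did not rest on this pair of lines. For JAK2 these values include the high L-1236 level of its main probe set. Without the pair, r was not computed for the 2 JAK2 probe sets that put L-1236 below background. Without L-1236 and U-HO1, whose arrays stood apart, r was 0.91, 0.92 and 1.0. Over all 14494 other genes above background in at least 1 line, 0.0966% had an r with CD274 at least as high as that of PDCD1LG2, and 0.517% at least as high as that of JAK2.

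**Figure D2:**
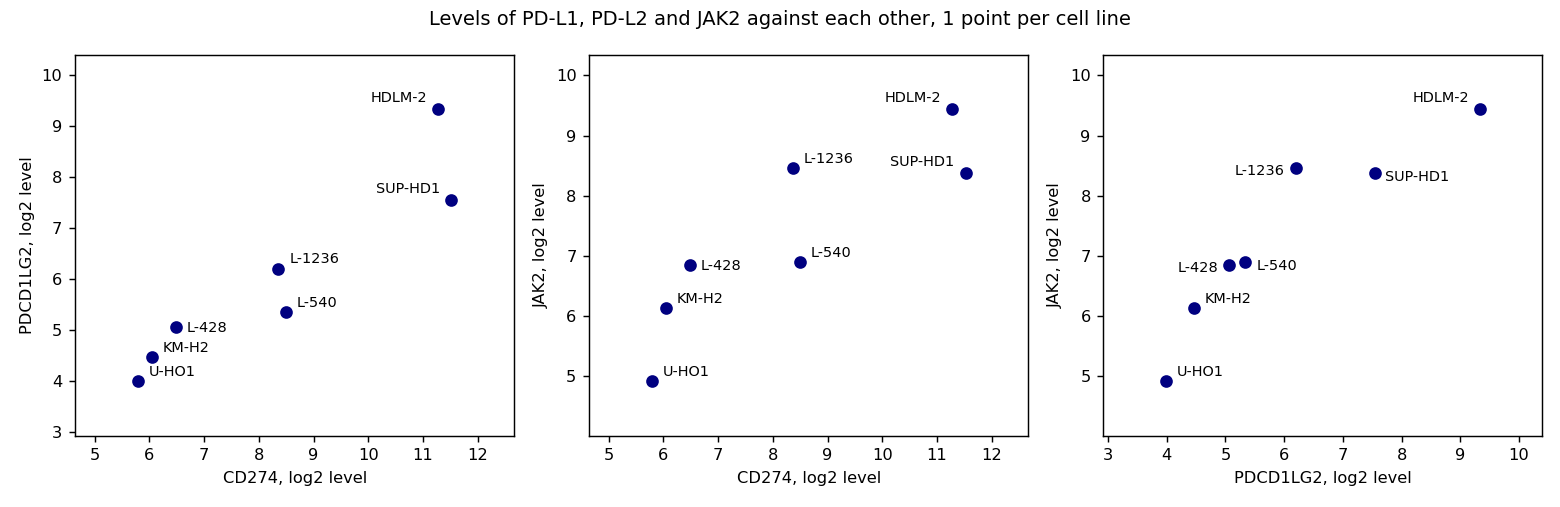
Log2 levels of PDCD1LG2 against CD274 (left), JAK2 against CD274 (middle) and JAK2 against PDCD1LG2 (right), with 1 point per HL cell line. The points rise together in each panel (r = 0.93, 0.87 and 0.93, n = 7), with HDLM-2 and SUP-HD1 on the upper right and U-HO1 on the lower left.

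The neighbours on the telomeric side of JAK2 had smaller ranges, and their highest level was in HDLM-2. AK3, an adenylate kinase of the mitochondrial matrix, had a level of 12.71 in HDLM-2, 11.0 in KM-H2, 10.95 in L-540, 10.83 in SUP-HD1, 10.24 in L-1236, 10.07 in L-428 and 9.36 in U-HO1. HDLM-2 stood 1.71 above KM-H2, and 2.44 above L-540 at the other AK3 probe set, whereas the lines that followed lay close together. RCL1, which takes part in the processing of pre-ribosomal RNA, had 9.14 in HDLM-2, 8.92 in L-540, 8.91 in SUP-HD1, 8.45 in L-428, 8.19 in KM-H2, 7.87 in L-1236 and 6.82 in U-HO1. Its range of 2.32 came from U-HO1, which was 1.05 below L-1236, since it dropped to 1.27 without U-HO1. At a second RCL1 probe set HDLM-2 was highest (9.01) and U-HO1 lowest (7.55) as well, and the remaining RCL1 probe set was above background in HDLM-2 alone (5.38).

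Next to the ligand genes, PLGRKT had the same 2 highest lines as they did. ERMP1 had only HDLM-2 in first place, as had AK3, RCL1 and UHRF2. PLGRKT, a plasminogen receptor of the cell surface with a single probe set, had 10.78 in HDLM-2, 10.32 in SUP-HD1, 8.97 in L-540, 8.85 in KM-H2, 8.80 in U-HO1, 8.44 in L-428 and 8.17 in L-1236. As for both ligands, HDLM-2 and SUP-HD1 were the 2 highest lines, here 1.35 above the next, and they led 3 of the 10 genes together, against 5.24% of all genes above background. PLGRKT had r = 0.82 with each ligand, but -0.26 with CD274 and -0.66 with PDCD1LG2 in the other 5 lines, so these relations rest on HDLM-2 and SUP-HD1. ERMP1, a metallopeptidase of the endoplasmic reticulum, had 9.90 in HDLM-2, 8.99 in L-540, 8.32 in U-HO1, 8.03 in SUP-HD1, 7.89 in L-1236, 7.68 in KM-H2 and 7.41 in L-428. HDLM-2 was 0.91 above L-540 here and 0.32 above it at the second ERMP1 probe set, so the first place was not certain, and SUP-HD1 was not raised. The ERMP1 level was 1.87 higher in HDLM-2 than in SUP-HD1. Its r with CD274 was 0.57, below the 0.72 of RCL1, the 0.69 of AK3 and the 0.62 of UHRF2. Without HDLM-2 the r of ERMP1 was 0.24 with CD274 and -0.01 with PDCD1LG2.

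Towards the centromere lie UHRF2, GLDC and KDM4C, whose r with CD274 was 0.62, 0.25 and 0.41. UHRF2, a ubiquitin ligase that reads modified DNA and histones, had 10.04 in HDLM-2, 9.94 in L-540, 9.63 in SUP-HD1, 9.20 in U-HO1, 8.82 in L-428, 8.81 in KM-H2 and 8.40 in L-1236, and no neighbours in this order differed beyond the technical spread. GLDC, the glycine decarboxylase of the glycine cleavage system, ordered the lines differently. Its level was 10.46 in SUP-HD1, 9.94 in L-428, 9.45 in U-HO1, 7.55 in L-1236, 7.41 in L-540, 7.02 in HDLM-2 and 3.0 in KM-H2. KM-H2 was below background and hence at least 49.1-fold lower than SUP-HD1, and counted from background its range was 5.62 in place of 7.46, close to the 5.73 of CD274. Without KM-H2 it dropped to 3.44. GLDC was the single gene of the group for which HDLM-2 lay below the mean of the lines, by 0.81, and its r with PDCD1LG2 and JAK2 was 0.13 and 0.07.

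KDM4C, a histone demethylase, was read differently by its 4 probe sets. The main one had 7.73 in SUP-HD1, 7.69 in U-HO1, 7.51 in HDLM-2, 7.32 in L-1236, 7.17 in KM-H2, 6.78 in L-540 and 6.37 in L-428, a range of 1.36 in which no neighbours in the order differed beyond the technical spread. The probe set with the largest variance gave 7.59 in SUP-HD1 and 6.56 in U-HO1 and values below background in the other 5 lines, with a range of 4.68. SUP-HD1 was highest at all 4 probe sets, whose SD of 1.38 for a difference between lines was the largest of the group.

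**Figure D3:**
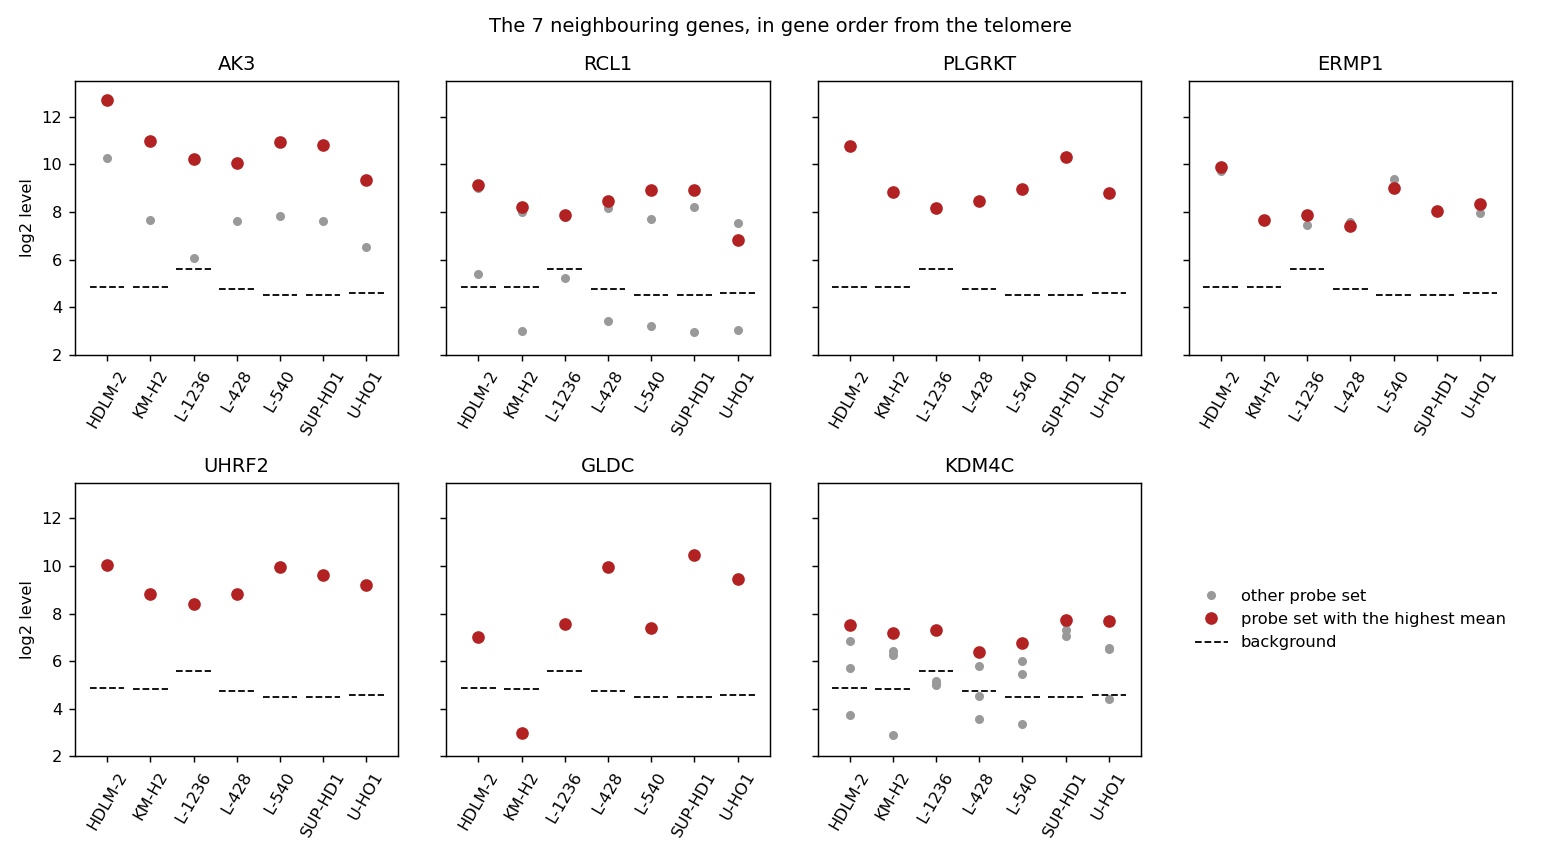
Log2 level (y axis) of the 7 neighbouring genes in the HL cell lines (x axis), in gene order from the telomere. Large points show the probe set with the highest mean, small points other probe sets and dashed lines the background of each array. HDLM-2 is highest for AK3, RCL1, PLGRKT, ERMP1 and UHRF2 and SUP-HD1 for GLDC and KDM4C.

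As a group, 8 of the 10 genes had a range of at least 2, against 50.2% of the 14495 genes that exceeded background in any line, and 5 had a range of at least 3, against 22.4%. Of the 21 probe sets 18 had a range of at least 2, against 53.8% of all. Without L-1236 and U-HO1 the count was 7 of 10, against 30.8%. HDLM-2 was the highest line for 7 of the 10 genes, where 12.5% of all genes had their highest level in HDLM-2, and SUP-HD1 was the highest for the other 3 (CD274, GLDC and KDM4C), against 14.5%. The lead over the second line exceeded the technical spread for 4 of the 7 genes in HDLM-2 (PDCD1LG2, JAK2, AK3 and, narrowly, ERMP1) and for 0 of the 3 in SUP-HD1. At the level of probe sets HDLM-2 was highest at 14 of 21, against 12.7%, and SUP-HD1 at the other 7, against 15.3%. No other line was the highest at any of the 21 probe sets. U-HO1 was the lowest line for 5 of the 10 genes, against 15.1%.

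The medians over the 10 genes separated the lines in the same way. Relative to the mean of the lines the median was 1.59 in HDLM-2, 0.83 in SUP-HD1, 0.0 in L-540, -0.35 in L-1236, -0.54 in KM-H2, -0.71 in L-428 and -0.88 in U-HO1, and over all genes it lay between -0.29 in L-1236 and 0.05 in SUP-HD1. The sign in L-1236 was not stable, with a median of 0.23 after the arrays were quantile normalized again, and without HDLM-2 the median of L-428 was -0.35. HDLM-2 was at least 1 above the mean for 6 of the 10 genes, against 10.4% of all genes, and SUP-HD1 for 5, against 9.21%. Without L-1236 and U-HO1, HDLM-2 had 6 such genes, against 8.91%, while SUP-HD1 had 3, against 7.53%. KM-H2 was at least 1 below it for 4, against 8.27%, and U-HO1 for 5, against 9.31%. Much of this came from CD274, PDCD1LG2 and JAK2. Over the 7 neighbours alone the median was 0.81 in HDLM-2 and 0.51 in SUP-HD1, and it was -0.06 in U-HO1, near the median of 0.02 over all genes. Between pairs of the 10 genes the median r was 0.57, and 6 of 45 pairs (13.3%) had an r of at least 0.8, against 2.23% of all pairs of genes and 6.51% of genes next to each other on a chromosome. This median was 0.33 without HDLM-2 and 0.71 without L-1236 and U-HO1, so HDLM-2 carried much of it. The count of such pairs was 4 without HDLM-2, 9 without KM-H2, and 10 without L-1236, without SUP-HD1 or without U-HO1.

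The position of the genes was followed along the chromosome in RefSeq order (GRCh38.p14). Between AK3 and KDM4C, 10 further genes were measured, of which INSL4, MLANA and IL33 were above background in no line. The other 7 had a median of 1.09 in SUP-HD1 and of 0.57 in HDLM-2 relative to the mean of the lines. RLN2, a relaxin gene between JAK2 and PLGRKT, had the largest range among them, with 7.74 in HDLM-2, 5.25 in L-428 and 5.14 in KM-H2 and levels below background from 2.48 to 3.85 in the other 4 lines. BRD10 had 8.06 in SUP-HD1, 7.72 in U-HO1, 7.45 in HDLM-2, 7.41 in L-540, 6.55 in KM-H2, 5.72 in L-428 and 5.23, below background, in L-1236. RLN1, the second relaxin gene, was above background in SUP-HD1 (5.56) and HDLM-2 (5.55) alone, the same pair of lines as for the ligands. RLN1 and RLN2 are close copies of each other, and hybridisation of their probes to both was not tested.

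The medians of HDLM-2 and SUP-HD1 differed on either side of this segment. Here only genes above background in at least 1 line were counted. The 10 nearest towards the telomere had a median of 1.99 in HDLM-2 and of 0.86 in SUP-HD1, and HDLM-2 was above the mean for 9 and the highest line for 7 of them. The 10 nearest genes towards the centromere had a median of -0.25 in HDLM-2 and of 1.09 in SUP-HD1, and HDLM-2 was above the mean for 3 and SUP-HD1 for 8 of them. On the rest of chromosome 9, with 559 genes, both medians were near 0, at 0.08 and 0.18, and among all genes HDLM-2 was above the mean for 49.8% and SUP-HD1 for 53.3%. HDLM-2 was the highest line at every such gene from SLC1A1 through SPATA6L, PLPP6, CDC37L1, AK3 and RCL1 to JAK2, although SLC1A1 was above background in 3 lines and SPATA6L in 2. Of the other nearest telomeric genes, PUM3, PLPP6 and CDC37L1 were above it in 7 lines and RFX3 in 5. VLDLR and GLIS3 were above it in 3 lines, and LINC01231 and GLIS3-AS1 in 1. Of the nearest centromeric genes, DMAC1, ZDHHC21, SNAPC3 and PSIP1 were above background in 7 lines and NFIB in 5. CCDC171 was above it in 3 lines, LURAP1L and BNC2 in 2, and MPDZ and TTC39B in 1. At DMAC1, ZDHHC21, SNAPC3 and PSIP1, HDLM-2 lay at -0.16, -0.12, 0.67 and 0.10 relative to the mean. SUP-HD1 lay at 1.32, 0.37, 0.98 and 1.20 there. Only 16 genes above background in at least 1 line lie on the telomeric side, and over all of them the median was 0.99 in HDLM-2 and -0.03 in SUP-HD1. Over the 6 farthest it was -0.07 in HDLM-2 and -0.89 in SUP-HD1, so the excess of neither line extended to them. On the centromeric side it was -0.08 in HDLM-2 and 0.90 in SUP-HD1 over the 20 nearest genes.

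**Figure D4:**
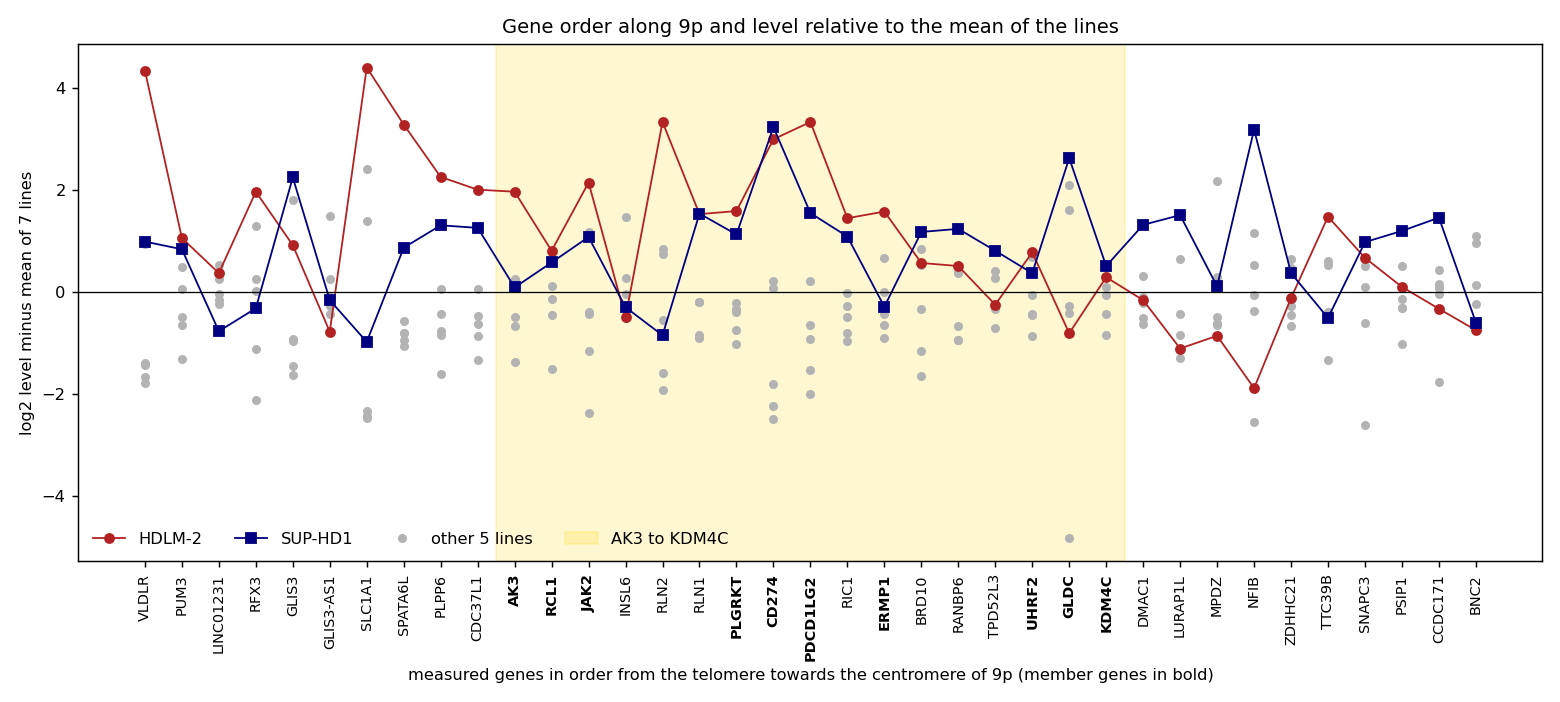
Log2 level relative to the mean of the 7 lines (y axis) for genes above background in at least 1 line along 9p, from the telomere (left) towards the centromere (right). The segment from AK3 to KDM4C is shaded. HDLM-2 is the highest line from SLC1A1 to JAK2 but above the mean at 3 of the 10 nearest centromeric genes, whereas SUP-HD1 is above it at 8 of these.

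Genes elsewhere in the genome were searched for the pattern of each core gene by Pearson's r over the 7 lines, among genes with a range of at least 2. The 5 most like CD274 were COL4A5, PPARG, IGF1, TSHZ2 and RNA45SN5, with r from 0.933 to 0.986. The lipid-responsive receptor gene PPARG had 8.95 in HDLM-2, 8.27 in SUP-HD1 and 5.43 in L-540, and the growth factor gene IGF1 had 9.51 in SUP-HD1, 8.32 in HDLM-2 and 6.85 in L-540, with lower levels in the other 4 lines. Those most like PDCD1LG2 were ACP2, IL4, PTPRCAP, ZNF106 and KDELR3, with r from 0.933 to 0.969. Among them, the cytokine gene IL4 was above background in HDLM-2 alone (5.71), and PTPRCAP had 8.86 in HDLM-2 and 8.39 in SUP-HD1 and at most 5.65 in the others. Most like JAK2 were GNG4, RAP2B, MAPRE2, NDFIP2 and GPNMB, with r from 0.931 to 0.968 and rho of 1.0. They shared the high place of L-1236 with the main JAK2 probe set, as MAPRE2 had 9.81 in HDLM-2, 9.45 in L-1236 and 8.35 in SUP-HD1. With 14494 genes and 7 lines, relations of this size say nothing of shared control.

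Among genes of the PD-1 and B7 systems, HDLM-2 was high for other ligands as well. Of the list of PD-1 and partners of its ligands 4 of 5 genes were measured, PDCD1 having no probe set of its own here. All 4 had a range of at least 2, against 50.2% of all genes. HDLM-2 was at least 1 above the mean for 3 of them, against 10.4% of all genes. CD80, which binds PD-L1 and the T-cell receptors CD28 and CTLA4, had 9.76 in HDLM-2, 8.05 in L-428, 7.70 in SUP-HD1, 7.47 in KM-H2, 7.41 in L-1236, 7.26 in U-HO1 and 3.99, below background, in L-540. RGMB, which binds PD-L2, had 7.34 in HDLM-2, 6.68 in L-540, 6.30 in U-HO1, 6.13 in SUP-HD1, 5.95 in L-428 and 4.91 in KM-H2 and was below background in L-1236. CMTM4, a membrane protein that stabilises PD-L1, had instead its lowest levels in SUP-HD1 (3.35) and U-HO1 (3.80), both below background, while SUP-HD1 had the highest CD274 level. CMTM6, the remaining measured gene of this list, was named after its values were seen. It was above background in all 7 lines, with 12.43 in HDLM-2, 11.19 in SUP-HD1 and its lowest level in U-HO1 (10.35). Of 8 further B7 genes, CD80 again included, 7 were above background in at least 1 line and 5 had a range of at least 2, near the share of 50.2% among all genes. CD86 had 10.54 in HDLM-2 and 6.69 in KM-H2, with 8.91 to 9.61 in the other lines, and NCR3LG1 was above background in HDLM-2 (5.97), L-1236 (5.76) and SUP-HD1 (5.68). The median over the B7 list was 1.0 in HDLM-2, 0.32 in SUP-HD1 and -0.95 in KM-H2.

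The kinases and factors around JAK2 had an r with it between -0.41 and 0.35. Of 8 measured Janus kinases and STAT factors other than JAK2, 3 had a range of at least 2, against 50.2% of all genes. The list median was 0.06 in HDLM-2, -0.37 in SUP-HD1 and -0.44 in U-HO1. STAT4 was above background in L-428 (9.15) and L-540 (6.38), STAT5A was highest in L-428 (9.21), and STAT5B in HDLM-2 (9.53), followed by L-540 (9.24). Among inhibitors of the pathway 5 of 9 measured genes had a range of at least 2, again near the 50.2% of all genes, while SH2B3 had no probe set of its own. SOCS1, which binds and blocks Janus kinases, had 10.12 in L-540, 9.21 in L-428, 8.83 in SUP-HD1, 8.51 in KM-H2, 8.48 in HDLM-2 and 7.52 in L-1236 but 2.87, below background, in U-HO1, which also had the lowest JAK2 level. SOCS3 was high in L-540 (10.63), SUP-HD1 (9.59), HDLM-2 (9.32) and U-HO1 (8.45) and lower in L-428 (5.52), while L-1236 and KM-H2 were below background. SOCS2 ranged from 10.55 in KM-H2 to 5.09, below background, in L-1236. The median over the inhibitors was 0.92 in L-540 and 0.44 in HDLM-2.

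Interferon gamma signalling, which acts through JAK2 on CD274, held genes that followed CD274 over the lines and genes that did not. All 6 genes of its receptor and of IRF factors were measured, and 5 had a range of at least 2, against 50.2% of all genes. Their median was 0.93 in HDLM-2, 0.51 in SUP-HD1 and -0.95 in L-1236. IRF8 was above background in SUP-HD1 (10.03), L-428 (9.40), L-540 (7.40) and L-1236 (6.6), IRF2 was highest in HDLM-2 (8.31), and the receptor gene IFNGR1 in L-428 (9.16) and HDLM-2 (8.92). Of 10 target genes 8 had a range of at least 2, against the same 50.2%. The chemokine gene CXCL10 had 11.55 in SUP-HD1, 10.90 in L-1236, 10.01 in KM-H2, 9.37 in U-HO1 and 6.31 in L-428, and was below background in both L-540 and HDLM-2, the line with a CD274 level of 11.28. GBP1 was highest in HDLM-2 (9.16) and GBP5 in L-428 (7.89). The r with CD274 was -0.14 for CXCL10 and -0.37 for GBP5. It was 0.80 for GBP2, 0.73 for IRF9 and 0.70 for the proteasome gene PSMB9, which were chosen after their values were seen. PSMB9 varied little, with a range of 1.16 from 10.55 in L-1236 to 9.39 in L-428, so its r describes small differences. GBP2 had 9.69 in L-540, 9.68 in HDLM-2, 8.72 in SUP-HD1, 7.05 in L-428, 6.76 in L-1236, 6.44 in KM-H2 and 5.96 in U-HO1. The median over the targets was 0.45 in L-428, 0.38 in SUP-HD1, 0.16 in HDLM-2 and -0.07 in KM-H2. It was -0.08 in L-1236, -0.27 in L-540 and -0.81 in U-HO1. The 2 highest medians, of L-428 with little CD274 and of SUP-HD1 with the most, were too close to be ranked.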

How the data were processed

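Total RNA of 7 HL cell lines was hybridised to HG U133 Plus 2.0 arrays, 1 per line. The methods name 2 laboratories without assigning the lines, so laboratory and line cannot be told apart. The authors normalized the intensities by quantiles after RMA background correction, using affy and limma (versions not given in the sources used here) and deposited log2 values to 2 decimals. These are levels, not ratios to the sample mean. One sample is titled HDLM-2 and labelled HDML-2 elsewhere, and the title was used. Every column was used (0 unused).

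The annotation gave 41097 of 54675 probe sets a single gene, 1801 several and 11777 none, and those with several or none were left out of gene values. Symbols were updated through the RefSeq gene table, which also gave gene order. A gene read by several probe sets was represented by the one with the highest mean. The 95th percentile over 107 probe sets of olfactory receptors set the background of each array, and 14495 of 19775 genes exceeded it in at least 1 line. Technical spread was the pooled SD between 20474 probe sets of 7283 genes, which also holds differences between transcripts. It does not hold variation that the probe sets of an array share. Levels below background were raised to it for a bound on a fold. Number and signal of the arrays limit the precision.

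No test between lines was possible. All probe sets of the 10 genes were read, with every level printed for the main one and chosen levels for some of the others. Also named are the 5 genes most like each of CD274, PDCD1LG2 and JAK2. For each list and for the genes lying between, the 3 with the largest range were named. A few others were chosen after their values were seen, as the text says. The genes and the lists were chosen with earlier results of these data known. The lists hold PD-1 and partners of its ligands, the B7 family, Janus kinases and STAT factors, JAK-STAT inhibitors, the interferon gamma receptor and IRF factors, interferon gamma targets, AP-1 factors, NF-kB subunits, paralogues and partners of the neighbours, and markers of HL cells, B-cells, T-cells and macrophages.

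Alternatives changed the probe set, the array scaling, the background, the reference and the lines. The procedure was run on simulated data with noise smaller than the technical spread, which checks the code and gives no error rate for these data. Python 3.11.15, pandas 2.3.3, numpy 2.4.6, scipy 1.17.1 and matplotlib 3.10.9 were used.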

Additional observations from a re-analysis of the deposited data

Results flagged for a closer look

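Of 31 measures examined over the 7 lines, 5 had 1 line far from the others, with a gap to the next line that was too large a share of the whole range for Dixon's outlier test at 95%. Chance alone gives this in about 1 of 20 groups. No level of the 10 genes at 9p24 was among them. L-1236 had a median of -1.87 over the HL cell markers, each relative to its mean over all lines, with KM-H2 next at 0.0, and a background of 5.59, with HDLM-2 next at 4.86. KM-H2 had a median of 1.54 over the macrophage and monocyte markers, with SUP-HD1 next at 0.11. U-HO1 had 11.12 for 18S ribosomal RNA, with L-540 next at 7.06, and an excess of 2.11 of the 3′ over the 5′ end of the ACTB transcript, where the next line had 0.54. The part of these features in the low CD274, PDCD1LG2 and JAK2 levels of U-HO1 and KM-H2 was not tested.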

How the results depend on the processing

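No paired analysis was possible because every line has a single array and no replicate numbers are shared. Under the alternatives 127 ranges stayed within the technical spread of their value and 13 did not, and of the medians of the genes 101 did and 2 did not. Part of the count of ranges was fixed in advance. Leaving out a line that is neither highest nor lowest cannot change the range of a probe set. A gene with 1 probe set cannot change with the choice of probe set. The count of genes with a range of at least 2 fell to 5 where a range of 3 was required and ran from 6 to 8 with each line left out in turn. The range of CD274 ran from 5.48 to 5.73 with each line left out, that of PDCD1LG2 from 3.55 (without HDLM-2) to 5.34, and that of JAK2 from 3.31 (without U-HO1) to 4.53. For JAK2 it was 3.52 with the mean of all probe sets and 3.31 without L-1236 and U-HO1 together, and there its r with PDCD1LG2 was 0.99, each gene being read from the probe set with the highest mean in the lines kept. With each line left out r ran from 0.92 to 0.96 for CD274 and PDCD1LG2, from 0.80 to 0.91 for CD274 and JAK2, and from 0.92 to 0.97 for PDCD1LG2 and JAK2.

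Among single genes, KDM4C had a range of 4.68 with the probe set of the largest variance and 2.35 with the mean of its probe sets, RCL1 of 0.95 without L-1236 and U-HO1, AK3 of 1.64 and ERMP1 of 1.58 without HDLM-2, and GLDC of 5.62 with levels raised to background. The median of the 10 genes in L-1236 was 0.23 after quantile normalization again, -0.10 without SUP-HD1 and -0.17 without HDLM-2, that in L-428 -0.35 and that in KM-H2 -0.35 without HDLM-2, and that in U-HO1 -0.52 without probe sets that may read several transcripts. Chosen after seeing the data, medians without CD274, PDCD1LG2 and JAK2 were 0.81 in HDLM-2 and -0.06 in U-HO1, and medians over up to 20 in place of 10 genes towards the telomere were 0.99 in HDLM-2 and -0.03 in SUP-HD1, with the sign turned in SUP-HD1. With the median of the lines as reference, the median of the genes between AK3 and KDM4C was 0.14 in HDLM-2 in place of 0.57. Signal over background limits KM-H2 and U-HO1 for PDCD1LG2 and KM-H2 for GLDC.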

Other observations

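Factors that bind AP-1 and NF-kB sites, both known as regulators of CD274, were read beside the genes at 9p24. Of 8 AP-1 factors, 7 were above background in at least 1 line and 4 had a range of at least 2, against 50.2% of all genes, with a median of 0.68 in L-540, 0.50 in HDLM-2, 0.36 in SUP-HD1 and -0.72 in U-HO1. JUNB had 10.87 in L-540, 10.36 in KM-H2, 9.86 in HDLM-2, 9.77 in SUP-HD1, 9.12 in L-428, 8.05 in L-1236 and 7.50 in U-HO1. FOSL2 was highest in L-540 (7.83), while FOSL1 had 6.08 in L-540 and 5.82 in KM-H2, closer than the technical spread. BATF3, chosen after its values were seen, had 11.73 in HDLM-2, 11.63 in L-540, 11.49 in SUP-HD1, 11.36 in L-428, 10.55 in L-1236, 10.23 in U-HO1 and 9.68 in KM-H2, with r = 0.71 with CD274. All 5 NF-kB subunits were measured, 3 with a range of at least 2, near the 50.2% of all genes. KM-H2 had their highest median at 1.07, against -0.14 in HDLM-2. REL, the gene of the subunit c-Rel, ran opposite to CD274 over the 7 lines (r = -0.88), with 10.60 in U-HO1, 9.70 in KM-H2, 9.41 in L-428, 8.36 in L-1236, 7.25 in SUP-HD1, 6.72 in L-540 and 6.23 in HDLM-2. RELB and NFKB2 were highest in KM-H2, with 7.62 and 9.19.

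Paralogues and partners of the neighbouring genes, which lie elsewhere in the genome, were read as well. Of 8 measured genes of this kind 2 had a range of at least 2, against 50.2% of all genes, and the median was -0.05 in HDLM-2 and -0.30 in SUP-HD1. AK4, a paralogue of AK3, had 3.38, below background, in L-540 and 8.18 to 10.21 in the other lines. GCSH, a partner of GLDC in the glycine cleavage system, had 9.88 in KM-H2, its highest level, whereas the GLDC level of KM-H2 was below background, and HDLM-2 had the lowest with 6.75. AMT of the same system ranged from 6.37 in U-HO1 to 4.58 in SUP-HD1.

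Markers of other cell types were unevenly detected. CD2, a T-cell marker, had 8.95 in HDLM-2 and 7.28 in L-540, and CD3D had 8.89 in KM-H2, where CD3G was just above background (4.91). POU2AF1, a B-cell marker, had 9.39 in SUP-HD1 and 6.81 in L-1236, and PAX5 ranged from 8.18 in U-HO1 to 4.60, below background, in L-428. CD22 had 6.81 in HDLM-2 and was below background in U-HO1 (4.26) and not above it in L-1236. Of the macrophage markers, CSF1R had 7.65 in L-540, MARCO 7.68 in L-1236 and CD14 6.02 in KM-H2. Among HL cell markers, CCL17 ranged from 13.07 in HDLM-2 to 6.64 in L-540 and FSCN1 from 12.10 in L-428 to 5.72 in U-HO1.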
